A study of Homo sapiens with 6 samples.

Results

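The histone cluster genes are the protein-coding genes whose symbols in the deposited tables start with HIST1H, HIST2H, HIST3H or HIST4H, the older names of the replication-dependent histones. By this rule 60 of the 32192 genes in the count table were members, 47 named HIST1, 9 HIST2, 3 HIST3 and 1 HIST4. By protein, 5 code for the linker histone H1, 14 for H2A, 17 for H2B, 12 for H3 and 12 for H4. The rule uses names only, but each of the 60 had at least 1 count in some library.

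The study sequenced RNA from A549, an established human lung adenocarcinoma cell line, to ask how overexpression of APEX1, a DNA repair enzyme and redox factor, bears on alternative splicing. Only the deposited gene levels are described here. The APEX1-OE group holds 3 libraries of A549 cells transfected with a pIRES-hrGFP-1a plasmid carrying APEX1, and the Ctrl group holds 3 libraries of A549 cells given the control plasmid, so that both groups share the cell line and a transfection. All libraries were stranded mRNA libraries made from polyadenylated RNA. The plasmid was introduced by transfection, so the share of cells that took it up was not measured in these files, and all libraries come from 1 cell line.

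Core histones H2A, H2B, H3 and H4 form the spool around which DNA is wound, and H1 binds the linker DNA between spools. The clustered genes are switched on in S phase, when new DNA needs new histones, by NPAT acting downstream of cyclin E and CDK2. Their transcripts have no introns and normally end after a short stem-loop, which is bound by SLBP and takes the place of a poly(A) tail, so that most of this RNA is not held by selection for polyadenylated transcripts. Some of these genes are also known to give longer, polyadenylated transcripts.

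The stem-loop was looked for first, because it defines how these transcripts end. The motif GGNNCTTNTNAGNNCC, in which N is any base, was searched for in the 100 bases after the stop codon, on both strands, in the coding transcripts of GENCODE release 44 on GRCh38. All 60 members held it on the coding strand and 0 on the other strand. Of the 19890 other protein-coding genes 13 held it, a share of 0.0654%, and 5 held it on the other strand. The motif began 22 to 67 bases after the stop codon. Each of the following lines gives 26 bases with the motif in capitals, 5′ to 3′ on the coding strand. HIST1H2BK and HIST1H1C are shown as the members with the highest levels, and HIST1H4J and HIST1H4K because their coding sequences are identical and their motifs are not.
HIST1H2BK, chr6:27146361-27146386, minus strand: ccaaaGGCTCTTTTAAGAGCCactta
HIST1H1C, chr6:26055739-26055764, minus strand: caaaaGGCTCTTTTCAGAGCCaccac
HIST1H4J, chr6:27824454-27824479, plus strand: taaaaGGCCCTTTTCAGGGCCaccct
HIST1H4K, chr6:27831173-27831198, minus strand: caaaaGGCCCTTTTTAGGGCCcccac

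The motif took 9 forms. The form of HIST1H1C was carried by 34 members from all families but H4, and the form of HIST1H2BK by 9. The H4 genes stood apart from the rest in this, since 8 of the 12 carried the form of HIST1H4J and 4 that of HIST1H4K, and no member of another family carried either.

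A second kind of end was annotated for some members. In GENCODE 44, 16 of the 60 had a transcript that ended more than 100 bases past the motif, and 10 of these 16 had the polyadenylation signal AATAAA in the last 50 bases of their farthest transcript. The windows of 4 are shown, for well-expressed members of H2A, H2B and H4, with the signal in capitals.
HIST1H2AC, chr6:26139080-26139109, plus strand: catgaggtAATAAAaggtaatgcaaaggga
HIST1H2BD, chr6:26171317-26171346, plus strand: ttataattAATAAAatctgcggagaattgt
HIST2H2BE, chr1:149884461-149884490, minus strand: ttgttattAATAAAgttaccaattaattta
HIST1H4H, chr6:26277609-26277633, minus strand: tgtgaaaaAATAAAtgtttaagcca

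These ends lay 1729 bases past the motif in HIST2H2BE and 7522, 12747 and 14432 bases past it in HIST1H4H, HIST1H2BD and HIST1H2AC, distances along the chromosome that count spliced-out sequence too. The annotated transcripts of HIST1H2BK and HIST1H1C, by contrast, ended 5 and 4 bases past the motif.

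The members lie in a few dense blocks. On chromosome 6 of GRCh38, 27 members lie between 26020451 and 26285638, 5 between 27125897 and 27147562, and 15 between 27807479 and 27893891. On chromosome 1, the 9 HIST2 genes lie between 149782689 and 149887965 and the 3 HIST3 genes between 228424845 and 228463104. HIST4H4 stands alone on chromosome 12, from 14767999 to 14771131.

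The core histone proteins are more alike within a family than their coding sequences. All 12 H4 members code for 1 and the same protein of 103 residues, and the 12 H3 members for 3 proteins, of which 1 is shared by 10 members. The 14 H2A members code for 9 proteins and the 17 H2B members for 13. The 5 H1 proteins all differ, with an identity as low as 49.1%. At the level of coding sequence the H4 members were as little as 79.6% identical. Identical coding sequences were found within 3 pairs, HIST2H2AA3 and HIST2H2AA4, HIST1H4J and HIST1H4K, and HIST2H4A and HIST2H4B. In all, 12 members share windows of 150 bases with another histone gene. HIST1H2AM and HIST1H3J are among these 12, and their annotated spans overlap on the same strand.

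The libraries held 28131955 to 41009197 counts, and 6261 to 9912 of these fell on the members. Their share of all counts was 0.0236, 0.0242 and 0.0242% in the APEX1-OE libraries and 0.0223, 0.0220 and 0.0219% in the Ctrl libraries, by replicate number. The 95% Wilson intervals reached from 0.0231 to 0.0248% over the APEX1-OE libraries and from 0.0214 to 0.0228% over the Ctrl libraries, and cover counting error only. The 3 APEX1-OE libraries lay above the 3 Ctrl libraries in this share of the total, and no test was made of this sum. The share was not normalized by TMM, the scaling used by edgeR in the tests below. The TMM factors of the libraries were 0.909, 1.04 and 1.06 in APEX1-OE and 0.956, 0.958 and 1.10 in Ctrl. With the library totals multiplied by these factors, the groups overlapped. In CPM, the counts scaled to the total of the library, the members summed to 240.1 ± 3.43 over the 3 APEX1-OE libraries and 220.6 ± 1.86 over the 3 Ctrl libraries (mean ± SD). Without HIST1H1C, which alone held the most counts, the sums were 154, 184 and 196 CPM in APEX1-OE and 163, 155 and 170 CPM in Ctrl, and the groups overlapped.

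A few genes made up most of the signal. In FPKM (fragments scaled to gene length in kilobases and to mapped reads), 18 members had a mean of at least 1 over the 6 libraries, 14 a mean under 0.1, and the median member stood at 0.319. At least 1 count in every library was seen for 39 members, and 21 were at 0 in some library, where a count of 0 allows up to 3 counts, or 0.0732 to 0.107 CPM. The 5 highest members, HIST1H2BK, HIST1H1C, HIST1H2AC, HIST1H2BD and HIST3H2A, held 78.2 to 83.3% of the summed FPKM of all 60.

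**Figure D1:**
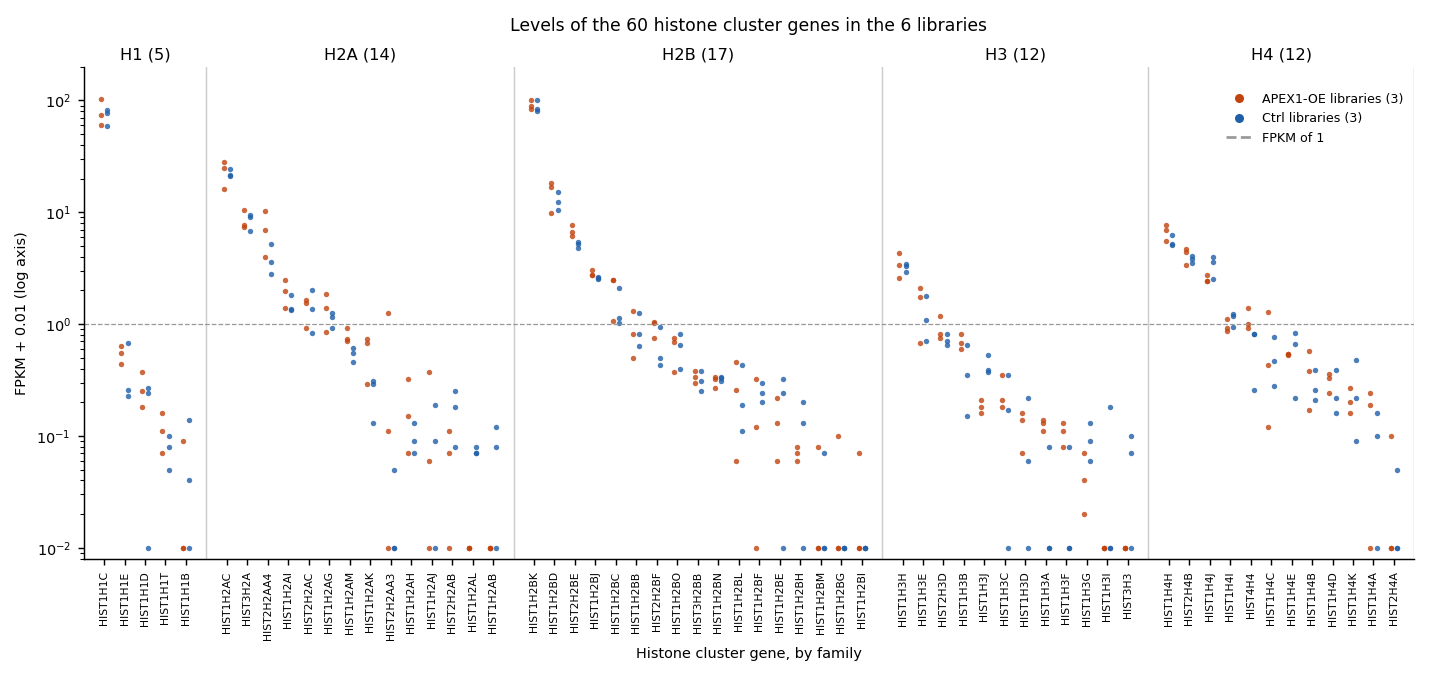
FPKM plus 0.01 (log axis) of each of the 60 histone cluster genes, by family and in order of their mean, with 1 point per library (orange APEX1-OE, blue Ctrl, 3 libraries each) and a dashed line at an FPKM of 1. HIST1H2BK and HIST1H1C lie between 59.6 and 102 in all 6 libraries, while 42 members lie under a mean of 1.

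HIST1H2BK, an H2B gene, had the highest mean FPKM, 89.8, which ranked it 582 among 17388 protein-coding genes. Its FPKM was 84.7, 89.4 and 102 in APEX1-OE and 99.96, 83.5 and 79.8 in Ctrl, with the replicates of each group in numerical order here and in all lists below. The groups overlapped, with means of 91.9 ± 8.83 and 87.7 ± 10.8 (SD, n = 3 each).

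HIST1H1C, which codes for the linker histone H1.2, followed with an FPKM of 102, 74.0 and 60.6 in APEX1-OE and 76.8, 82.1 and 59.6 in Ctrl. Here the highest and nearly the lowest library belonged to the same group. The other H1 genes were low: HIST1H1E had a mean of 0.457, HIST1H1D 0.210, the testis histone gene HIST1H1T 0.085 and HIST1H1B 0.040.

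Among the H2A genes, HIST1H2AC led with 16.2, 25.1 and 28.0 FPKM in APEX1-OE and 21.7, 21.1 and 24.3 in Ctrl. HIST3H2A followed with 10.4, 7.35 and 7.66 in APEX1-OE and 9.12, 9.51 and 6.85 in Ctrl. The libraries of neither gene separated by group, and APEX1-OE replicate 1 was the lowest library for the first and the highest for the second. HIST2H2AA4 stood at 6.98, 4.01 and 10.3 against 5.15, 3.55 and 2.78, while HIST1H2AI, HIST2H2AC and HIST1H2AG had means of 1.72, 1.38 and 1.23.

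Of the H2B genes after HIST1H2BK, HIST1H2BD had 9.76, 16.8 and 18.4 FPKM in APEX1-OE and 12.4, 10.4 and 15.1 in Ctrl. HIST2H2BE had 6.59, 7.74 and 6.15 in APEX1-OE and 5.37, 4.77 and 5.15 in Ctrl. All 3 APEX1-OE libraries of HIST2H2BE lay above the Ctrl libraries, and those of HIST1H2BD did not. HIST1H2BJ, with 2.75, 3.02 and 2.75 against 2.50, 2.65 and 2.58, also separated in FPKM, but its groups overlapped in CPM normalized by TMM. HIST1H2BC and HIST1H2BB had means of 1.71 and 0.877.

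The genes of H3 and H4, the histones at the heart of the spool, were low by comparison. The summed FPKM of the 12 H3 members was 7.28 ± 1.70 in APEX1-OE and 6.40 ± 0.780 in Ctrl (SD, n = 3 each), 2.62% of that of all members, and HIST1H3H alone had 2.58, 3.38 and 4.30 in APEX1-OE and 2.94, 3.45 and 3.30 in Ctrl. The next H3 genes were HIST1H3E, HIST2H3D and HIST1H3B, with means of 1.33, 0.812 and 0.532. HIST1H3J had 3, 3 and 3 counts in APEX1-OE and 5, 9 and 7 in Ctrl, too few for the test below, and an exact two-sided permutation test of its FPKM gave p = 0.1, the smallest possible here. HIST1H3C had a mean FPKM of 0.202. Of the 12 H4 members, HIST1H4H had 5.55, 7.73 and 6.99 in APEX1-OE and 5.18, 5.05 and 6.22 in Ctrl. HIST2H4B and HIST1H4J had means of 3.98 and 2.95, and HIST1H4I, HIST4H4 and HIST1H4C of 1.03, 0.857 and 0.548.

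Levels per length rest on the gene length used to make the FPKM. That length was worked out from the ratio of each gene's counts to its FPKM for the 32 members with a high enough FPKM in some library. The ratio was scaled so that the median well-counted gene matched its longest GENCODE transcript. For 12 of these it lay within 5% of the coding length, as for HIST1H2BK with 377 bases and a coding sequence of 378. For 19 it was more than 1.25 times the coding length, with 1635 bases for HIST1H2AC and 2234 for HIST2H2BE. HIST1H2AG was the clearest misfit to the annotation used here, with 2230 bases against a single GENCODE transcript of 493. With the longest GENCODE transcript as the length in place of these, HIST1H2BK, HIST1H1C, HIST1H2AC and HIST1H2BD kept the first 4 places, with 84.8, 81.9, 27.6 and 18.7 CPM per kilobase, while HIST1H4H moved from place 6 to 16 and HIST1H2AG from 17 to 7. In plain counts HIST1H1C came first, with 12024 over the 6 libraries, before HIST1H2AC with 9496 and HIST1H2BK with 8517.

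Members with an annotated end past the motif had the higher levels as a group. The 16 such members had a median mean FPKM of 2.21, and 10 of them had at least 1. The other 44 had a median of 0.229, and 8 of them had at least 1. The highest 2 of all, HIST1H2BK and HIST1H1C, were among these 44, so the annotated end did not mark every member with a high level. In counts, which do not depend on the length used to make the FPKM, the medians over the 6 libraries were 558 and 29. These are descriptions across genes, which are not replicates, and the longer transcripts offer more bases to count. Another annotated gene lay over 17 of the 60 members on the same strand and over 14 on the other strand. Members with and without such an end were among them, and whether reads of the overlapping genes entered the counts was not tested.

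**Figure D2:**
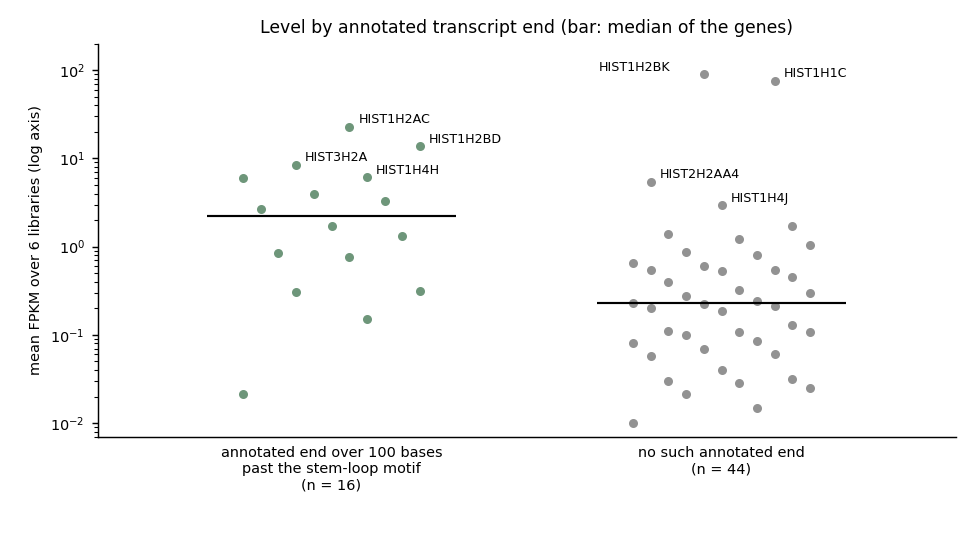
Mean FPKM over the 6 libraries (log axis) of the 16 histone cluster genes with an annotated transcript end more than 100 bases past the stem-loop motif and of the 44 without, with 1 point per gene and a bar at the median. The medians are 2.21 and 0.229, and HIST1H2BK and HIST1H1C top the second group.

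Many clustered histone genes stand head to head and share the stretch of DNA between their starts. In 10 pairs of members the annotated starts lay at most 500 bases apart on opposite strands. HIST1H2BK and HIST1H2AH start 250 bases apart, yet HIST1H2AH, an H2A gene, stood at 0.14, 0.31 and 0.06 FPKM in APEX1-OE and 0.08, 0.12 and 0.06 in Ctrl, against a mean of 89.8 for HIST1H2BK. HIST3H2A and HIST3H2BB start 229 bases apart and had means of 8.49 and 0.317. HIST1H2AC and HIST1H2BC, 218 bases apart, had 22.7 and 1.71. In 7 of the 10 pairs the gene with the higher mean was the higher one in all 6 libraries. Among these 7 is HIST1H2BO with HIST1H3J, which rests on the farthest annotated start of HIST1H3J. That start lies within HIST1H2AM, the other partner of HIST1H2BO. In HIST1H2AJ with HIST1H2BM the first was the higher in 4 libraries and both were listed at 0 in the rest. The order varied between libraries in HIST1H2AM with HIST1H2BO and in HIST1H2AK with HIST1H2BN, with means of 0.655 and 0.602 and of 0.395 and 0.308.

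**Figure D3:**
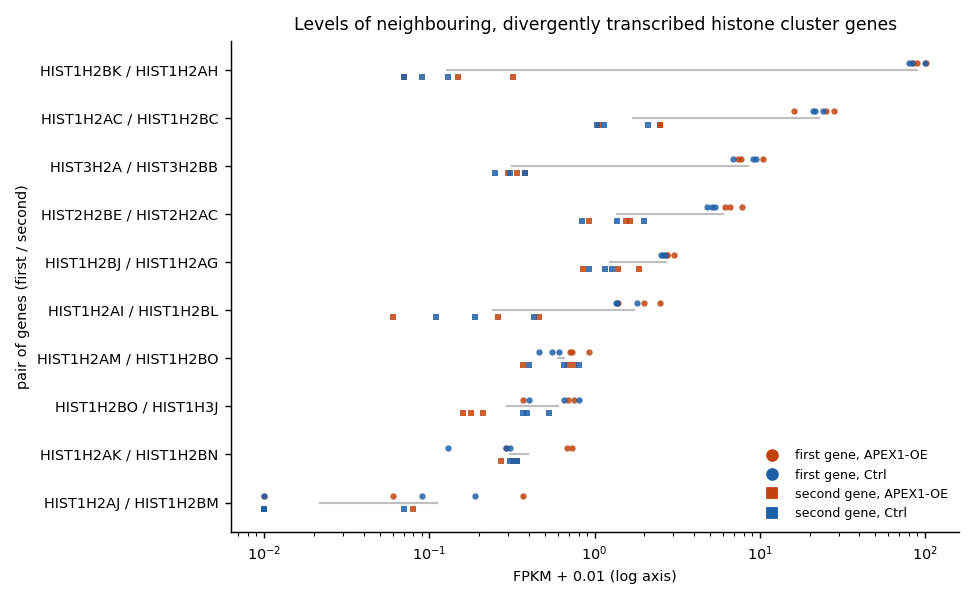
FPKM plus 0.01 (log axis) of the 10 pairs of histone cluster genes that start within 500 bases of each other on opposite strands, with the first-named gene as circles and the second as squares, 1 point per library (orange APEX1-OE, blue Ctrl) and a grey line between the means. In HIST1H2BK and HIST1H2AH the means are 89.8 and 0.128.

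The reads of the pairs with identical coding sequences fell mostly on 1 copy. HIST2H2AA4 had 143, 112 and 244 counts in APEX1-OE and 99, 85 and 71 in Ctrl, and its copy HIST2H2AA3 had 2, 0 and 29 against 0, 0 and 1. HIST2H4B had 138, 249 and 225 against 136, 194 and 195, and HIST2H4A at most 2 in any library. The authors counted uniquely mapped reads, and how reads of sequence shared by the copies were assigned is not known. Of the windows of 150 bases, 99.7% in HIST2H2AA4 and 100% in HIST2H4B also occur in another histone gene. The split within such a pair is therefore uncertain. Each level is best read for the pair, whose sum may be too low. With no filter on low counts edgeR called HIST2H2AA3 higher in APEX1-OE, which rests on the 29 counts of APEX1-OE replicate 3.

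APEX1 itself, the check of the overexpression, was 2.42 higher on the log2 scale in APEX1-OE, with an adjusted p of 0.00809 (edgeR, quasi-likelihood, p-values adjusted by the Benjamini-Hochberg method). Without APEX1-OE replicate 2 or 3 or Ctrl replicate 1 or 2 that p rose to 0.118, 0.0674, 0.210 and 0.207, at a log2 fold change of 2.36 to 2.46 over all libraries left out. This test was fitted to all 16971 genes with enough counts, among them 28 members: 2 H1, 7 H2A, 10 H2B, 4 H3 and 5 H4 genes. Of the 28 members 0 passed an adjusted p of 0.05, where 0.00589% of all genes tested did. At an unadjusted p of 0.05 the test again had 0 members, against 0.695% of all genes. DESeq2, which took in all 60 members, called 0 and had 2 at an unadjusted p of 0.05, and limma-voom called 0 and had 0. The remaining 32 members had too few counts for the main test. The p-values measure only the spread between these libraries, which may be technical, since the labels do not say that the replicates were separate cultures. In bulk RNA, a change in the number of cells in S phase and one in the RNA per cell cannot be told apart.

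The fitted log2 fold changes of the 28 members ranged from -0.43 for HIST1H4J to 0.86 for HIST2H2AA4. Their median was 0.17, where all genes tested had a median of 0.03. A value above 0 was fitted for 21 of the 28 members, or 75.0%, beside 57.5% of all genes tested. The median by family was 0.28 for H1, 0.26 for H2A, 0.11 for H2B, 0.32 for H3 and 0.11 for H4. The standard errors lay between 0.20 and 0.48, and each value but that of HIST2H2AA4 lay within 2 standard errors of 0.

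HIST2H2AA4, an H2A gene, had the largest value, 0.86 with a standard error of 0.40 and an unadjusted p of 0.0658 (edgeR, adjusted p = 1.00). Its CPM after normalization by TMM was 5.43, 2.64 and 6.56 in APEX1-OE and 3.68, 2.58 and 1.81 in Ctrl. APEX1-OE replicate 2 lay among the Ctrl libraries, so the groups overlapped. Summed with its identical copy HIST2H2AA3, the log2 fold change was 0.94 with a standard error of 0.42 (edgeR, unadjusted p = 0.0571, adjusted p = 1.00).

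In 4 of the 28 members every APEX1-OE library lay above every Ctrl library, as in 1.38% of all genes tested, and in 0 members every APEX1-OE library lay below, as in 2.01% of all genes tested. HIST2H2BE had 20.5, 20.4 and 15.8 CPM against 15.4, 13.9 and 13.4, with a log2 fold change of 0.41 and a standard error of 0.22. HIST1H4H had 3.04, 3.58 and 3.15 CPM against 2.60, 2.58 and 2.85. The lowest APEX1-OE library was close to the highest Ctrl library in both genes. HIST1H2AM, with 8 to 18 counts per library, had 0.380, 0.424 and 0.323 CPM against 0.298, 0.273 and 0.204. It overlaps HIST1H3J on the same strand, and whether its counts hold reads of that gene was not tested. HIST4H4, the lone gene on chromosome 12, had 1.10, 0.612 and 0.645 CPM against 0.595, 0.182 and 0.535. None of these 4 had an unadjusted p under 0.05 in edgeR's quasi-likelihood test, with adjusted p = 1.00 for each. An exact two-sided permutation test of the FPKM gave p = 0.1 for HIST2H2BE, HIST1H2AM and HIST4H4, the smallest p that 3 libraries against 3 allow, and p = 0.2 for HIST1H4H.

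On the other side of 0, HIST1H4J had the lowest value, -0.43 with a standard error of 0.28, from 1.25, 1.06 and 1.16 CPM in APEX1-OE and 1.86, 1.73 and 1.10 in Ctrl. Ctrl replicate 3 fell among the APEX1-OE libraries. HIST1H4I, HIST1H2BN, HIST1H2BB and HIST1H2BO followed with log2 fold changes of -0.24, -0.10, -0.07 and -0.06. At the other end HIST1H3B and HIST2H2BF stood at 0.79 and 0.59, with standard errors of 0.48 and 0.31. Without Ctrl replicate 1 or 3 the value of HIST1H3B was 0.46 or 1.35, and without Ctrl replicate 2 or 3 that of HIST2H2BF was 0.39 or 0.96. Leaving out each library in turn gave 0.58 to 1.16 for HIST2H2AA4 and 0.45 to 1.06 for HIST4H4. The 2 leading members were close to 0, with 0.04 for HIST1H2BK (standard error 0.20) and 0.12 for HIST1H1C (standard error 0.31).

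**Figure D4:**
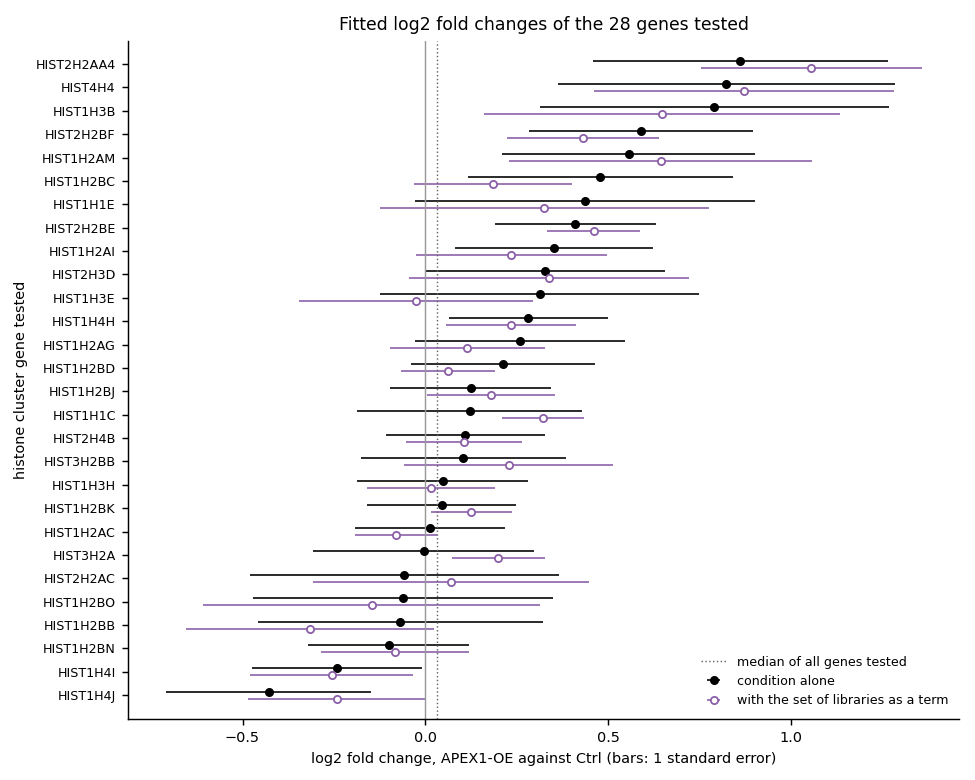
Fitted log2 fold change of APEX1-OE against Ctrl for the 28 histone cluster genes tested, with bars of 1 standard error, for edgeR's fit with the condition alone (filled) and with the set of libraries as a term (open), and a dotted line at the median of all genes tested. The filled points run from -0.43 for HIST1H4J to 0.86 for HIST2H2AA4.

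The libraries differed in a way that crossed the groups. The first principal component of all genes tested but the members held 72.7% of the variance and split the libraries into a first set of 3, made up of Ctrl replicates 1 and 2 together with replicate 1 of APEX1-OE, and a second set with the remaining 3. The labels give no batch, and the origin of this split was not tested. Of the 28 members, 6 were wholly higher in the second set of 3 libraries, where 35.5% of all genes tested were, and 3 wholly lower, where 30.9% were.

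The 9 members came from all 5 families. HIST1H2BC had 2.43, 2.34 and 2.01 CPM in the second set and 1.21, 1.19 and 1.09 in the first. HIST1H1C had 55.5, 44.1 and 44.2 CPM in the second set and 90.3, 62.4 and 67.9 in the first, and HIST3H2A and HIST1H4J were likewise lower in the second set. HIST1H2AC, HIST1H2BD, HIST1H3E, HIST1H2AI and HIST2H2BF were higher there. Across the 16749 genes tested with a known GC content, the difference between the sets had a correlation of -0.76 with GC content, and across the 28 members of -0.22, both descriptions over genes that share the same 6 libraries. The transcripts of the members held 39.5 to 64.4% GC.

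**Figure D5:**
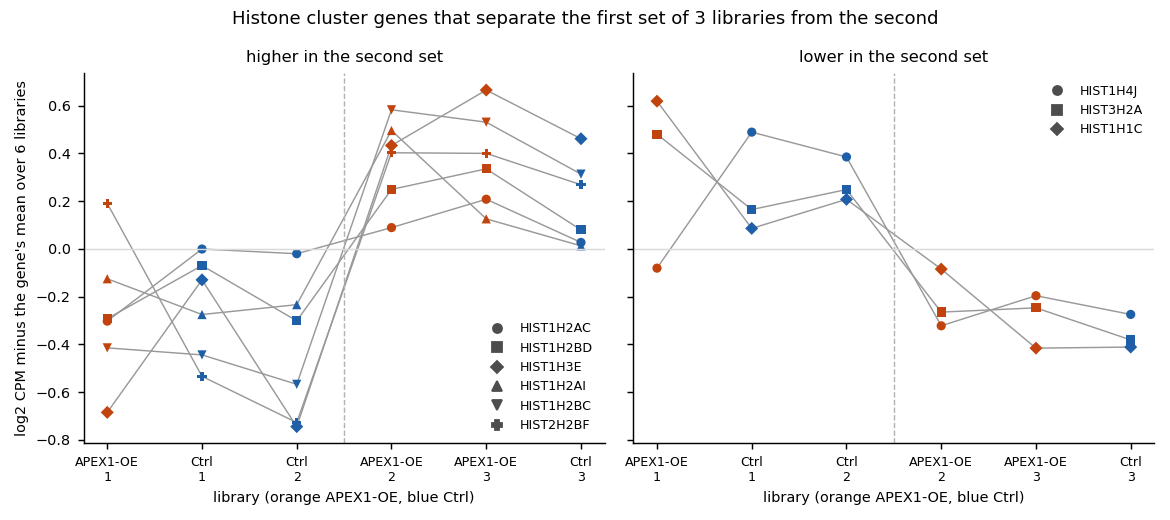
Log2 CPM of 9 histone cluster genes minus each gene's mean over the 6 libraries, with the first set of 3 libraries left of the dashed line and the second set right of it (orange APEX1-OE, blue Ctrl). The 6 genes of the left panel are higher in the second set and the 3 of the right panel lower, with APEX1-OE libraries on both sides.

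With the set of libraries as a term in edgeR's fit, 0 members passed an adjusted p of 0.05, where 0.0236% of all genes tested did. Unadjusted p-values under 0.05 were then found for 3 of the 28 members, all higher in APEX1-OE, beside 11.6% of all genes tested in either direction and 8.61% in this one. These were HIST2H2BE at 0.46, HIST2H2AA4 at 1.06 and HIST1H1C at 0.32 on the log2 scale, with adjusted p of 0.350, 0.350 and 0.364 (edgeR).

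The genes that make, bind and replace these histones were read in the same fit. Of 98 such genes in 6 lists, 97 were in the table and all 97 were tested. In edgeR's quasi-likelihood test 0 were called and 0 had an unadjusted p under 0.05, and DESeq2 and limma-voom called 0 as well. The median log2 fold change of the 97 was 0.06, with 72 of them above 0, beside 57.5% of all genes tested. With the set of libraries as a term, 17 of the 97 had an unadjusted p under 0.05, beside 11.6% of all genes tested, and 0 were called. Their median log2 fold change in that fit was 0.015.

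SLBP, the stem-loop binding protein, stood at 10.9, 16.3 and 16.7 FPKM in APEX1-OE and 13.8, 13.4 and 15.2 in Ctrl, with a log2 fold change of 0.02 and a standard error of 0.20. The 19 genes of 3′ end processing, among them the stem-loop and U7 snRNP factors, had a median of 0.11. NPAT, the activator of these genes, was at 0.18, 0.46 and 0.49 FPKM in APEX1-OE and 0.28, 0.25 and 0.36 in Ctrl, with a log2 fold change of 0.30 and a standard error of 0.33. Neither gene's groups separated. The 10 genes of histone gene transcription had a median log2 fold change of 0.14, the 8 of histone mRNA translation and decay 0.23, the 22 histone chaperones 0.07 and the 31 S phase genes 0.06. Once the set of libraries was a term, the median was -0.0037 for 3′ end processing and 0.051 for transcription. It was then 0.015 for translation and decay, 0.033 for chaperones and 0.0028 for S phase genes.

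Replacement histones can be made outside S phase, most of them from ordinary polyadenylated transcripts, while H2AFX is known to give both a stem-loop and a polyadenylated form. In the table were 11 of the 12 listed. Their median log2 fold change was -0.04, and 0.02 with the set of libraries as a term. Per length they outweighed the clustered genes of H3, H2A and H1 in these libraries, the families compared. H3F3A and H3F3B, both coding for H3.3, held 96.0 to 96.7% of the summed FPKM of these 2 and the 12 clustered H3 genes in each library. The 6 replacement H2A genes, with H2AFJ at a mean FPKM of 136 and H2AFZ at 129.97, held 87.6 to 91.3% of the sum with the 14 clustered H2A genes. H1F0 and H1FX held 65.5 to 68.9% of the sum with the 5 clustered H1 genes. These shares are of RNA selected for poly(A) tails, and how much RNA ending at the stem-loop the selection lost was not measured.

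The cell line was checked by its markers. KRT7, KRT8 and KRT18, keratins of simple epithelium, lay between 1550 and 3562 FPKM in all libraries, and NQO1, AKR1B10 and ALDH1A1, known to be high in A549, between 401 and 1957. From the same list, AKR1C1 had 108 to 185 FPKM, KRT19 67.4 to 106 and CDH1 4.52 to 10.7. The lung markers NKX2-1, SFTPB and SFTPC were at 0.13 FPKM or less and EPCAM at 0.18 to 0.52. Of the markers of blood, vessel and stromal cells with a value, CD14 reached 1.51 to 3.18 FPKM, and none of the others more than 0.73.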

How the data were processed

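RNA-seq of 6 A549 libraries, 3 APEX1-OE and 3 Ctrl, was analysed, and groups were taken from the sample labels. The authors trimmed the reads, aligned them to GRCh38 with TopHat2 and deposited, for uniquely mapped reads, a table of raw counts per gene and a table of FPKM made by scaling to gene length and mapped reads. Not given in the sources used here: the counting tool, the annotation and the use of strand. The tables held 0 columns of other series.

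The counts of the 16971 genes passing filterByExpr (minimum count 10, minimum total 15) were normalized by TMM and fitted with edgeR 4.0.16 (glmQLFit, glmQLFTest; R 4.3.3), with Benjamini-Hochberg adjustment over all genes tested and a threshold of 0.05. Single genes were also compared in FPKM by an exact two-sided permutation test, whose smallest p with 3 libraries against 3 is 0.1. DESeq2 1.42.0, limma 3.58.1 on log2(FPKM + 1) or log2(FPKM + 0.1), limma-voom, other scalings and filters, an offset for GC content and length, the set of libraries, a replicate block and leaving out each library were alternatives. Summing identical copies was added after seeing the data. The main edgeR fit was tested on counts simulated with known changes, without the split into sets of libraries. The alternatives were not tested in this way.

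Sequences were read with Python 3.11.15 from GRCh38 with GENCODE release 44, in which 56 members were matched by identifier and 4 by newer symbol through RefSeq synonyms. Members and gene lists were chosen with earlier results of these data known. Genes were named by rule: up to 6 members of each family with the highest mean FPKM, members with an unadjusted p under 0.05, the 5 highest and 5 lowest fitted changes, SLBP, NPAT and APEX1. Other members are named for their sequence, copy or neighbour, or because their libraries separated, and this choice was made after seeing their values. The libraries held 28131955 to 41009197 counts. A count of 0 allows 3 counts, and intervals cover counting error only.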

Additional observations from a re-analysis of the deposited data

Results flagged for a closer look

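A pair of histone pseudogenes, which are outside the 60 protein-coding members and entered no comparison above, were narrowly higher in every APEX1-OE library than in every Ctrl library in CPM scaled by TMM, while their counts overlapped. They were picked from 7 such pseudogenes because they separated this way above a minimum count, and pseudogenes lower in APEX1-OE were not searched for. Of all genes tested, 1.38% were wholly higher in APEX1-OE and 2.01% wholly lower. HIST2H2BC had 18, 32 and 31 counts in APEX1-OE and 18, 14 and 16 in Ctrl, a mean of 0.757 against 0.501 CPM. The lowest APEX1-OE library, 0.683 CPM, was close to the highest Ctrl library, 0.670 CPM. HIST2H2BD had 5, 12 and 8 counts against 5, 0 and 6, a mean of 0.229 against 0.113 CPM, with 0.190 CPM in the lowest APEX1-OE and 0.186 CPM in the highest Ctrl library. Whether these reads came from the pseudogenes or from related histone genes was not tested.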

How the results depend on the processing

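Under the 22 alternatives, 0 histone cluster genes were called in 21 and 1 without a filter on low counts, and 0 related genes were called in all 22. The number of genes called, 1 as reported, became 2 with limma on log2(FPKM + 0.1), 10 with no filter, 4 with the set of libraries as a term, 12 with that term and an offset for GC content and length, 118 at an unadjusted p under 0.05, and 0 to 1 when 1 library was left out. The members higher in APEX1-OE, 21 of 28 as reported, were 40 of 60 with DESeq2, with no filter and with unfiltered limma, and 33 of 46 with limma at either pseudocount, where more members were tested. Their median log2 fold change, 0.17 as reported, was 0.24 with DESeq2, 0.23 with no filter, 0.22 with the GC and length offset, 0.080 with filtered and 0.048 with unfiltered limma on log2(FPKM + 1), and 0.13 to 0.23 when 1 library was left out. The cause was not tested.

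The fitted log2 fold changes that turned sign lay between -0.07 and 0.31 as reported. With the GC and length offset, HIST1H2AC was -0.076, HIST1H2BB 0.045, HIST1H2BO 0.085, HIST2H2AC 0.028, HIST3H2A 0.057 and NPAT -0.034. With the set of libraries as a term, HIST1H2AC was -0.080, HIST1H3E -0.026, HIST2H2AC 0.071, HIST3H2A 0.20 and SLBP -0.043, and HIST3H2A was 0.16 with offset and set. Upper quartile scaling gave -0.030 for HIST1H2AC and -0.021 for SLBP. HIST3H2A was 0.011 with DESeq2, 0.016 with its size factors in edgeR and 0.0035 with no filter, and HIST2H2AC was 0.0048 with limma on log2(FPKM + 0.1). Leaving out 1 library gave -0.24 to 0.32 for HIST1H1C, -0.096 to 0.13 for HIST1H2AC, -0.0017 to 0.43 for HIST1H2AG, -0.46 to 0.20 for HIST1H2BB, -0.063 to 0.16 for HIST1H2BK, -0.28 to 0.21 for HIST1H2BO, -0.091 to 0.13 for HIST1H3H, -0.30 to 0.33 for HIST2H2AC, -0.30 to 0.12 for HIST3H2A and -0.036 to 0.11 for SLBP. The cause was not tested.

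The replicate numbers did not pair the samples. The deviations of same-numbered libraries from their group means correlated at 0.61, -0.52 and 0.70 for numbers 1, 2 and 3, and not every library correlated best with its own number. With the replicate block 2 genes were called in all, 0 of them members, and 20 members were higher, with a median of 0.16. HIST1H2AC was then -0.0025, and with block and offset together HIST1H2AC was -0.070, HIST1H2BB 0.029, HIST1H2BO 0.11, HIST2H2AC 0.064, HIST3H2A 0.052 and NPAT -0.018.

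With 3 libraries a group, standard errors of 0.20 to 0.48 limit what could be detected, and 32 members had too few counts to be tested. How much RNA without a poly(A) tail was lost in selection was not measured.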

Other observations

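The other 5 pseudogenes with histone cluster names were at or near 0. HIST2H2BB had 2, 6 and 3 counts in APEX1-OE and 1, 3 and 1 in Ctrl, HIST1H1PS1 had 0, 5 and 4 against 0, 0 and 3, and HIST1H2APS4, HIST1H2BPS2 and HIST1H3PS1 had at most 2 in any library.

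The replacement histone genes differed among themselves in how they moved between the sets of libraries. H2AFJ had 169, 114 and 109 FPKM in APEX1-OE and 159, 155 and 109 in Ctrl, while H3F3A, which codes for H3.3, had 44.3, 66.5 and 92.1 against 63.2, 60.04 and 79.8. The former was lower and the latter higher in the second set, and neither separated by group. H2AFY, which codes for macroH2A, lay between 46.3 and 49.6 FPKM in all 6 libraries.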
